A study of Mus musculus with 9 samples.

Results

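Adiponectin, leptin, resistin and the other hormones that fat cells release carry information on energy stores to the brain, liver, muscle and vessels. The data described here cover 9 genes that encode such secreted factors, namely Adipoq, Lep, Retn, Cfd, Rbp4, Nampt, Apln, Nrg4 and Angptl4. They were chosen by name and not by measured values, though with earlier results of these data known. They are 9 of the 21938 protein-coding genes of the mouse annotation used (GENCODE M21, on mm10). For each gene, peaks were taken within 1 kb of any annotated transcription start site (a promoter peak) and in the gene body plus 20 kb on each side (a region peak).

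The study asked where the transcription factor Ets1 binds in fat cells and how chromatin changes when adipocytes gain or lose it. It gave 9 peak lists from male mice, each from 1 library per group. Ets1 was profiled in mature adipocytes taken from the subcutaneous fat pad of the groin (inguinal white adipose tissue, iWAT). These came from wild type C57 mice aged 8 to 10 weeks, of which one group stayed at room temperature (RT) and one spent 7 days in the cold (cold stress, CS). It was also profiled in beige adipocytes differentiated in culture for 6 days from the stromal vascular fraction (SVF) of iWAT of wild type mice aged 3 to 4 weeks. H3K27ac, an acetylated histone mark of active promoters and enhancers, was profiled in mature iWAT adipocytes of 4 genotypes at the same age. EC+/+ mice were homozygous for a conditional Ets1 knock-in at the Hipp11 locus (a CAG promoter, a stop cassette flanked by loxP sites, Ets1 and EGFP) without Cre, and EA+/+ mice carried the same knock-in with Adipoq-Cre. Flox mice were homozygous for a floxed Ets1 allele without Cre, and EAKO mice carried it with Adipoq-Cre. Open chromatin was profiled by ATAC-seq in Flox and EAKO. For Ets1 and H3K27ac the method was CUT&Tag: a transposase tethered by an antibody cuts the DNA next to the target.

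The Cre driver matters for the genes described here, because it is built from regulatory sequence of Adipoq itself. EA+/+ and EAKO adipocytes carry that transgene and EC+/+ and Flox adipocytes do not. Which part of the locus it holds was not given in the sources used here, so signal from transgene copies and from the endogenous Adipoq gene cannot be told apart in EA+/+ and EAKO. Mature adipocytes were collected as the upper layer after digestion and a spin, with no sort for a marker.

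Lists differed greatly in size, from 4056 peaks (Ets1, RT) to 88977 peaks (ATAC, Flox). Read depth is not part of a peak list. Peak strength was therefore ranked within each list as a percentile of the −log10 q value, with the strongest peak of a list near 100, and no strength was compared as a ratio between lists. No difference between groups could be tested, since each group had 1 library. As to the targeted gene, H3K27ac peaks in the Ets1 gene body numbered 18 for Flox against 16 for EAKO. They numbered 5 for EC+/+ against 3 for EA+/+. These counts cannot settle the genotype labels. The knock-in lies at the Hipp11 locus, and the counts cover the whole Ets1 gene, not the floxed part alone. Of 14 adipocyte markers, 1 had a promoter peak in the RT list (4.06% of all protein-coding genes), 8 in the CS list (32.7%), 12 in the Flox H3K27ac list (63.9%) and 11 in the Flox ATAC list (67.7%). The Wilson interval held the share of all genes in each of these lists, so these counts do not set adipocyte markers apart. It ran 1.27 to 31.5% in RT, 32.6 to 78.6% in CS, 60.1 to 96.0% in Flox H3K27ac and 52.4 to 92.4% in Flox ATAC. Of 6 macrophage markers at most 2 had one in any list (in beige cells, 46.4% of all genes). Of 5 lymphocyte markers it was at most 2 (in Flox H3K27ac, 63.9%). All 5 stem and progenitor markers had a promoter peak in both Flox and EAKO H3K27ac lists (63.9% and 60.5% of all genes), and so did 4 of 5 endothelial markers. Ets1 promoter peaks were called at 2 of the 5 endothelial markers in CS (32.7% of all genes), and at 0 in RT (4.06%) and in beige cells (46.4%). Mesothelial markers had promoter peaks at 2 or 3 of 4 genes in the beige, H3K27ac and ATAC lists. The endothelial count in Flox H3K27ac (interval 37.6 to 96.4%) and the mesothelial counts were near the shares of all genes, which ran from 46.4% in beige cells to 67.7% in Flox ATAC, so they do not show whether other cell types were present. The interval of 5 of 5 (56.6 to 100%) held the Flox and EAKO shares, so the stem and progenitor counts do not show this either.

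The 9 genes start from promoters of very different base composition. The promoter sequences of RefSeq (GRCm38.p6; 250 bases before to 50 after a start) covered 8 of the 9 genes, and Angptl4 had no entry. The 250 bases upstream of Nampt, which had a promoter peak in every list, are shown first. Those of Adipoq and Cfd, which had one in no list, follow, with those of Lep, whose main start had none although it is rich in CpG. Capitals mark CpG dinucleotides, and each sequence is written 5′ to 3′ on the strand of the gene, the plus strand in all 4.
Nampt, chr12:32820085-32820334: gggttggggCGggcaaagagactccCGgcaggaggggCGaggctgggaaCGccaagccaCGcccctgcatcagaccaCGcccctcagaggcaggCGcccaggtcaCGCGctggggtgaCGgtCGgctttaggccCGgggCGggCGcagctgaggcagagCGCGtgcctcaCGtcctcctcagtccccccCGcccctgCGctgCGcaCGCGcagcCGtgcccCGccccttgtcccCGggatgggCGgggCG
Adipoq, chr16:23146286-23146535: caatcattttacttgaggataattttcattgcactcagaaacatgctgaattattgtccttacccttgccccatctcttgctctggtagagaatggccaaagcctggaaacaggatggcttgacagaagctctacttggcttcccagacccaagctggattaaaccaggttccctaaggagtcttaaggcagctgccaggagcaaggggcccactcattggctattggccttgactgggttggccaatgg
Cfd, chr10:79890603-79890852: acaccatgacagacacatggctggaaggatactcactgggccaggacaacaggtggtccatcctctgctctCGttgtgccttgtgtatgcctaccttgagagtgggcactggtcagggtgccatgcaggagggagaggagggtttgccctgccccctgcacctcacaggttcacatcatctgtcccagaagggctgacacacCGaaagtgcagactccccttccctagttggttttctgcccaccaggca
Lep, chr6:29059971-29060220: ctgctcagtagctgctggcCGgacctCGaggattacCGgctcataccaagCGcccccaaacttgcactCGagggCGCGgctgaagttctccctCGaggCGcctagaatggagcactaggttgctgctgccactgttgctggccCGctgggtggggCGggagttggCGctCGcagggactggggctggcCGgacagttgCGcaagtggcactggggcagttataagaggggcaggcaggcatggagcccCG

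Over the whole window of 300 bases, Nampt held 36 CpG, Adipoq 0, Cfd 2 and Lep 19. Rbp4 held 40 in its CpG-rich window and 5 in the other, Apln 15, Nrg4 13 (at a start inside the gene, 43.0 kb from the 5′ end) and Retn 2. The median over all 32851 RefSeq promoters was 7.00. Among 16522 protein-coding genes matched by symbol, those with 0 to 4 CpG had a promoter peak in Flox ATAC in 16.9% of cases, those with 5 to 14 in 67.8%, and those with 15 or more in 96.5%. In the Ets1 list of beige cells the same classes stood at 6.52%, 36.4% and 74.9%. Adipoq and Cfd fell in the poorest class and shared its usual state of no promoter peak. Retn fell in that class too, yet had a promoter peak in 5 lists, both ATAC lists among them. Lep was the opposite case, with a CpG-rich main start and no peak within its 300 bases in any list. All these are descriptions across genes, and CpG content was not varied in the study.

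**Figure D1:**
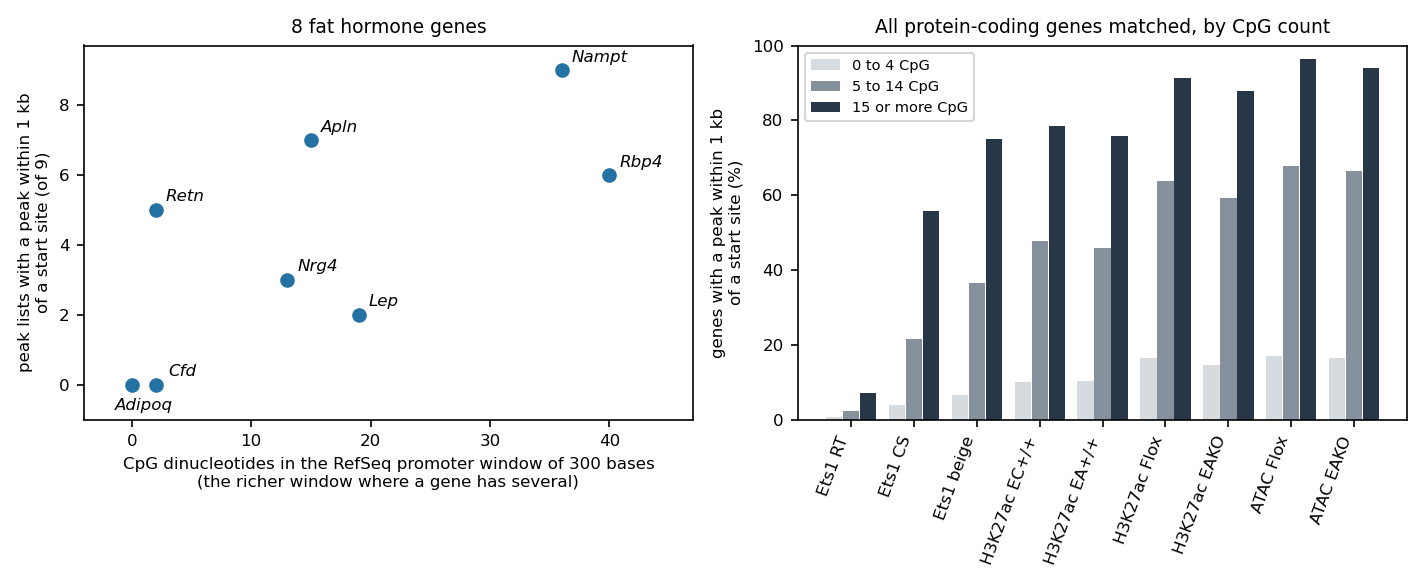
Left, CpG dinucleotides in the RefSeq promoter window, the richer where a gene has several (horizontal axis), against the number of the 9 lists with a promoter peak (vertical axis) for 8 fat hormone genes. Right, percent of all matched protein-coding genes with a promoter peak in each library, by CpG class. Nampt stands at 36 CpG and 9 lists, Adipoq at 0 CpG and 0 lists, and Lep at 19 CpG and 2 lists. Lists are counted for peaks within 1 kb of any start, not only that of the plotted window. The Lep window itself has a peak in 0 lists, its 2 lists being at a start inside the gene. The Nrg4 window has one in 2 lists, while Nrg4 stands at 3.

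Ets1 binds DNA through the ETS domain, which reads a GGAA core. The letters GGAA, searched on both strands, were in 7 of the 9 member windows, and in 96.0% of all RefSeq promoters of the same length, so they separate few promoters. The longer CCGGAA, which contains GGAA, was in 0 of the 9 and in 14.9% of all. At the Ets1 peaks themselves, short windows of equal length were centred on the summits. In beige cells 16 of 19 region peaks of the 9 genes held GGAA, beside 65.9% of all beige peaks. In CS 3 of 8 held it, beside 50.9% of all CS peaks, and in RT 2 of 2, beside 36.8%. CCGGAA was in 2 of the 19 beige windows, both at the start sites of neighbours (Trappc5 and Fbxo22), and in 1 of the 8 CS windows, again at Fbxo22. Summit windows are given here for the Nampt promoter in RT and CS, as the one member promoter with Ets1 in adult fat, and for the Retn promoter, a site inside Angptl4 and a site beyond Adipoq in beige cells. They were read from the NCBI GRCm38.p6 genome on the strand of the gene (plus, apart from Angptl4 on minus), and capitals mark GGAA or its reverse complement TTCC.
Nampt, RT, chr12:32820118-32820218: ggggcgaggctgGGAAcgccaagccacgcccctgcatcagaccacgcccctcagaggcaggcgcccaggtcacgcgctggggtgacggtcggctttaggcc
Nampt, CS, chr12:32820163-32820263: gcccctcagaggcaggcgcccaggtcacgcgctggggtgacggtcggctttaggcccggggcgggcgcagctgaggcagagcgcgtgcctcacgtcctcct
Retn, beige, chr8:3655123-3655223: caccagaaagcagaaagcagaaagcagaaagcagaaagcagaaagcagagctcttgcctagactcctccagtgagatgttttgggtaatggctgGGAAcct
Angptl4, beige, chr17:33779569-33779669: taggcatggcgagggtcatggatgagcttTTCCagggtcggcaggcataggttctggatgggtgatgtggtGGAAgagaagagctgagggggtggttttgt
Adipoq, beige, chr16:23159873-23159973: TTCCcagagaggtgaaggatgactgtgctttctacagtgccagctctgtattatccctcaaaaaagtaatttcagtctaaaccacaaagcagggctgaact
The Nampt window of RT held GGAA and that of CS, centred slightly further downstream, did not. The Retn window holds a simple repeat near its 5′ end. A match of these letters is a description of the window, not a binding site.

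In adult adipocytes Ets1 was found at the promoter of 1 of the 9 genes, Nampt, in RT and in CS alike. Over all protein-coding genes the share with a promoter peak was 4.06% in RT and 32.7% in CS, and the Wilson interval of 1 of 9 (1.99 to 43.5%) held both values. In beige cells 4 of 9 had a promoter peak (Retn, Nampt, Apln and Angptl4), beside 46.4% of all genes. H3K27ac promoter peaks were present at 6 genes in EC+/+ (52.0% of all genes), 5 in EA+/+ (50.4%), 5 in Flox (63.9%) and 4 in EAKO (60.5%). ATAC promoter peaks were present at the same 6 genes in Flox (67.7%) and EAKO (66.0%). Counted over lists, 2 of the 9 genes had a promoter peak in none, as had 26.4% of all genes, and Nampt had one in all 9, as had 3.08%.

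**Figure D2:**
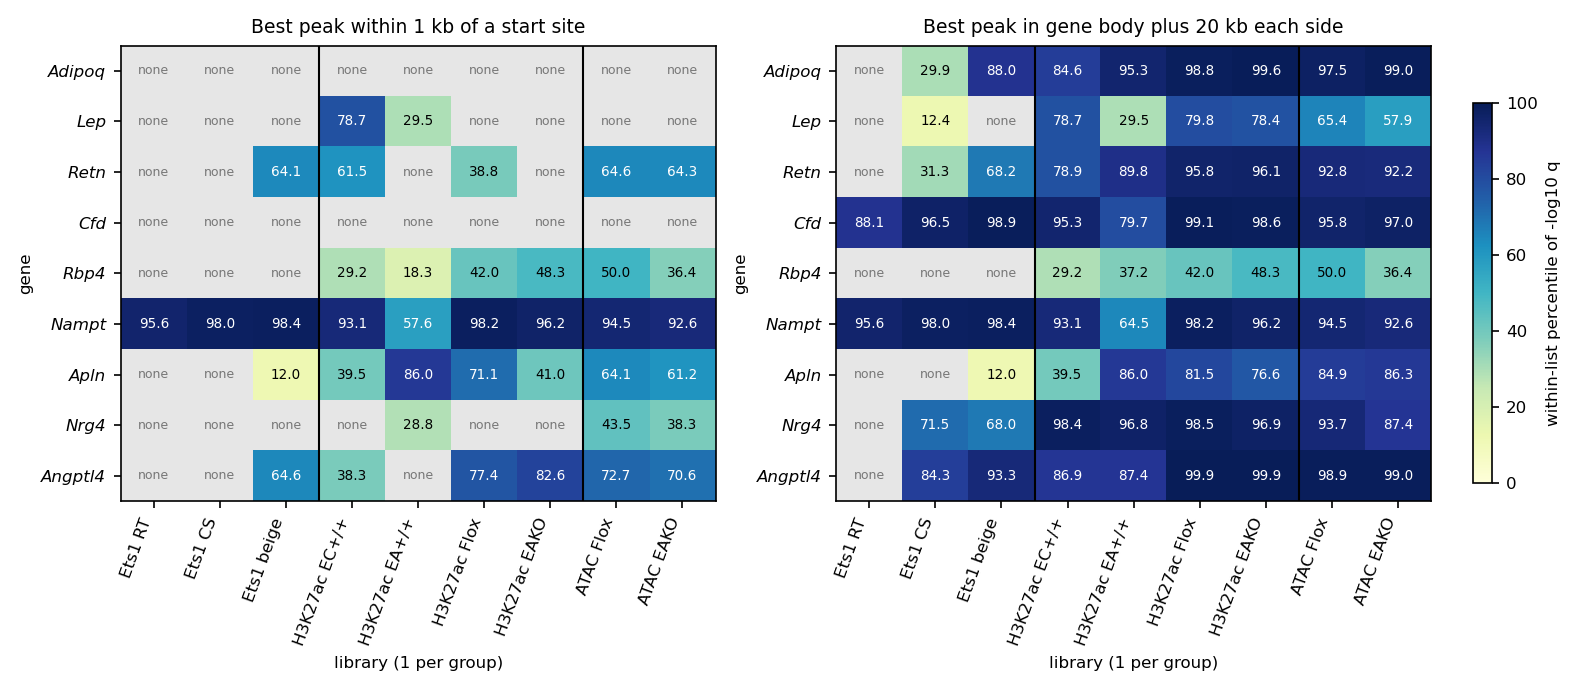
Within-list percentile of −log10 q (colour and number, 0 to 100) of the best promoter peak (left) and the best region peak (right) for each gene (rows) in each library (columns). Grey cells hold no peak. The Nampt row is filled in all 9 columns on the left, and the Adipoq and Cfd rows are empty there but filled on the right in 8 and 9 columns.

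Nampt encodes nicotinamide phosphoribosyltransferase, the enzyme that limits NAD salvage, which is also released into blood as visfatin (ENSMUSG00000020572.8, chromosome 12, 32819545 to 32853349, plus strand). Its Ets1 promoter peak stood at percentile 95.6 in RT (rank 180 of 4056), 98.0 in CS (rank 300 of 14858) and 98.4 in beige cells (rank 475 of 30553). The −log10 q values were 15.9, 19.7 and 92.7. The summits lay 167 bp and 122 bp upstream of the nearest annotated start in RT and CS and 33 bp downstream of it in beige cells. Thus the same promoter was near the top of all 3 Ets1 lists, and no other member came near this in adult fat. H3K27ac at the promoter was strong in EC+/+ (93.1), Flox (98.2) and EAKO (96.2) and middling in EA+/+ (57.6). Promoter ATAC stood at 94.5 in Flox and 92.6 in EAKO, or at 74.1 and 80.6 by fold enrichment. By −log10 q the EA+/+ value was the low one of these 6. There the signal was split into a peak of percentile 20.6 where the other lists had their summit and a peak of 57.6 about 1.3 kb from the 5′ end, the latter overlapping no EC+/+ peak. A split was not particular to EA+/+. EAKO also had a second, weaker promoter peak further into the gene, at 48.0 for H3K27ac and 45.9 for ATAC. Beyond the 3′ end, sites about 35.7 kb and 37.6 kb from the 5′ end carried peaks in 5 and 7 of the lists. Both had an Ets1 peak in beige cells (percentiles 23.5 and 42.1) and in neither adult list.

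Adipoq encodes adiponectin, the hormone that raises insulin sensitivity and is made almost solely by adipocytes (ENSMUSG00000022878.5, chromosome 16, 23146536 to 23158028, plus strand). No list had a peak within 1 kb of either of its 2 annotated starts. The nearest were ATAC peaks about 2.0 kb upstream in Flox and 1.9 kb upstream in EAKO, at percentiles 22.9 and 4.3. The strongest peak of the region lay 18.5 to 18.7 kb upstream in 8 lists, at the promoter of the neighbour Rfc4, a subunit of the DNA clamp loader. For Ets1 it stood at percentile 29.9 (CS) and 88.0 (beige cells). For H3K27ac it stood at 84.6 (EC+/+), 95.3 (EA+/+), 98.8 (Flox) and 99.6 (EAKO), and for ATAC at 97.5 (Flox) and 99.0 (EAKO). Apart from that site, Ets1 had 1 peak in the region, 13.4 kb downstream of the start in beige cells (percentile 54.6). A site 9.8 kb upstream was open in both genotypes (77.5 in Flox, 71.3 in EAKO) and acetylated in both (49.6 and 74.9). The intron site 5.0 kb into the gene was open in both (34.4 and 50.0) and carried H3K27ac in EA+/+ (72.5) and in no other genotype.

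Lep encodes leptin, the satiety hormone (ENSMUSG00000059201.12, chromosome 6, 29060220 to 29073877, plus strand). Its main start had no peak within 1 kb in any list. The promoter peaks counted for Lep belonged to a second annotated start inside the gene, 496 bp and 503 bp upstream of it in EC+/+ and EA+/+. H3K27ac there was at percentile 78.7 in EC+/+ and 29.5 in EA+/+, and Flox and EAKO had none. The other H3K27ac and ATAC peaks of the region lay past the 3′ end, apart from one in the last part of the gene in EA+/+ (18.3). A site about 28.6 kb from the 5′ end stood at 14.9 in EC+/+, 79.8 in Flox and 78.4 in EAKO for H3K27ac, and at 65.4 in Flox and 57.9 in EAKO for ATAC. A site about 22.8 kb from the 5′ end stood at 25.1 in EA+/+, 78.0 in Flox and 55.6 in EAKO for H3K27ac. Ets1 had 1 peak in the region, 10.2 kb upstream in CS (percentile 12.4, −log10 q 2.14), outside every other list. Beige cells and RT had none.

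Retn encodes resistin, which in mice is released by adipocytes and opposes insulin (ENSMUSG00000012705.16, chromosome 8, 3655770 to 3660110, plus strand). A site about 0.7 kb upstream of its start was open in Flox (64.6) and EAKO (64.3), bound by Ets1 in beige cells (64.1) and acetylated in Flox (38.8). EC+/+ had H3K27ac just past the start instead (61.5). The H3K27ac lists of EA+/+ and EAKO and the Ets1 lists of RT and CS had no promoter peak. In each list with a region peak the strongest lay downstream, at the promoter of Fcor, a corepressor of Foxo1, or of Trappc5, a subunit of a vesicle tether. Ranked by fold enrichment instead, the promoter peak of Retn itself was the top one in Flox ATAC (71.0, against 67.2 at Trappc5). The Fcor site had a peak in 8 lists, from 31.3 in CS and 68.2 in beige cells to 92.2 in EAKO ATAC. Trappc5 had one in 6 lists, at 95.8 in Flox H3K27ac and 96.1 in EAKO H3K27ac.

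Cfd encodes adipsin (complement factor D), the serine protease that starts the alternative complement pathway (ENSMUSG00000061780.6, chromosome 10, 79890853 to 79892655, plus strand). It had no promoter peak in any list. A site 17.9 kb downstream, at the promoter of the Mediator subunit Med16, had a peak in all 9 lists, and was strong in most. The Ets1 percentile there was 88.1 for RT, 96.5 for CS and 98.9 for beige cells. ATAC stood at 95.8 in Flox and 97.0 in EAKO, or at 80.2 and 84.8 by fold enrichment. H3K27ac stood at 95.3 (EC+/+), 78.3 (EA+/+), 99.1 (Flox) and 98.6 (EAKO). In EA+/+ a peak 16.3 kb upstream, at the promoters of Plppr3 and Prtn3, was slightly higher (79.7). Closer to the gene, open sites lay 7.0 kb upstream (81.7 in Flox, 79.7 in EAKO) and 2.1 kb downstream of the start (70.1 and 63.4). The upstream site also carried an Ets1 peak in beige cells (24.4) and weak H3K27ac in EC+/+ (16.6), Flox (3.1) and EAKO (28.4), and the downstream site carried neither.

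Rbp4 encodes retinol-binding protein 4, the carrier of vitamin A in blood (ENSMUSG00000024990.13, chromosome 19, 38116629 to 38125281, minus strand). It had no Ets1 peak in its promoter or region in any of the 3 lists. H3K27ac was present at its promoter in all 4 lists at percentiles of 29.2 (EC+/+), 18.3 (EA+/+), 42.0 (Flox) and 48.3 (EAKO), and ATAC at 50.0 (Flox) and 36.4 (EAKO). With 40 CpG it had the richest promoter window of the 8 genes with a sequence, and its promoter peaks reached the middle of a list at most.

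Apln encodes apelin, a peptide that acts on vessels and heart through its receptor Aplnr (ENSMUSG00000037010.7, chromosome X, 48025146 to 48034853, minus strand). Its promoter peak was present in 7 lists, all but RT and CS. Ets1 in beige cells was weak (12.0), while H3K27ac stood at 39.5 (EC+/+), 86.0 (EA+/+), 71.1 (Flox) and 41.0 (EAKO), and ATAC at 64.1 and 61.2. The EC+/+ and EA+/+ peaks overlapped different parts of the promoter and not each other. Further out, the open site 5.7 kb upstream was stronger within the ATAC lists (84.9 and 86.3) than the promoter. A site about 19.7 kb upstream was open in both (55.7 and 58.8) and acetylated in Flox (81.5) and EAKO (76.6).

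Nrg4 encodes neuregulin 4, an EGF-like hormone of brown and beige fat that acts on ErbB receptors of the liver (ENSMUSG00000032311.17, chromosome 9, 55220222 to 55326844, minus strand). Its 5′ window is shared with the start of the divergent gene Tmem266, so promoter peaks there belong to either gene. Open chromatin was present there in Flox (43.5) and EAKO (38.3), and weak H3K27ac in EA+/+ (28.8) alone. The start inside the gene had weak ATAC peaks (12.5 in Flox, 13.0 in EAKO). No Ets1 list had a promoter peak. Within the gene, a pair of intron sites near 30.6 kb and 31.7 kb from the 5′ end was open in both genotypes, and the former held an Ets1 peak in beige cells (19.9). The latter was acetylated in Flox (66.5) and EAKO (70.7). The strongest peak of the region lay beyond the 3′ end at the promoter of Fbxo22, an F-box protein, in 8 lists, from 68.0 in beige cells to 98.5 in Flox H3K27ac.

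Angptl4 encodes angiopoietin-like 4, a secreted inhibitor of lipoprotein lipase (ENSMUSG00000002289.16, chromosome 17, 33773750 to 33781830, minus strand). Of the members it had the most Ets1 promoter peaks in beige cells, 3, at percentiles of 64.6, 54.4 and 61.4, spread from 0.6 kb to 2.2 kb into the gene. The adult lists had none there. H3K27ac at its best promoter peak stood at 38.3 in EC+/+, 77.4 in Flox and 82.6 in EAKO, and was absent in EA+/+, and ATAC stood at 72.7 and 70.6. A site 1.7 kb upstream was open (80.7 in Flox, 78.5 in EAKO) and acetylated (86.0 in Flox, 64.5 in EAKO). Ranks of Angptl4 depended on the measure: by fold enrichment the ATAC peaks of this site stood at 25.7 and 24.6 and its H3K27ac peaks at 68.6 and 22.4. By fold the best ATAC promoter peaks fell to 16.6 and 16.8, and the 3 Ets1 peaks of beige cells to 38.1, 26.9 and 35.2. The best H3K27ac promoter peaks stood at 20.0 (EC+/+), 49.0 (Flox) and 59.4 (EAKO) by fold. The promoter of the neighbour Rab11b, a GTPase of recycling endosomes, held the strongest region peak in 8 lists, at 84.3 in CS, 93.3 in beige cells and 99.9 in both Flox and EAKO H3K27ac.

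**Figure D3:**
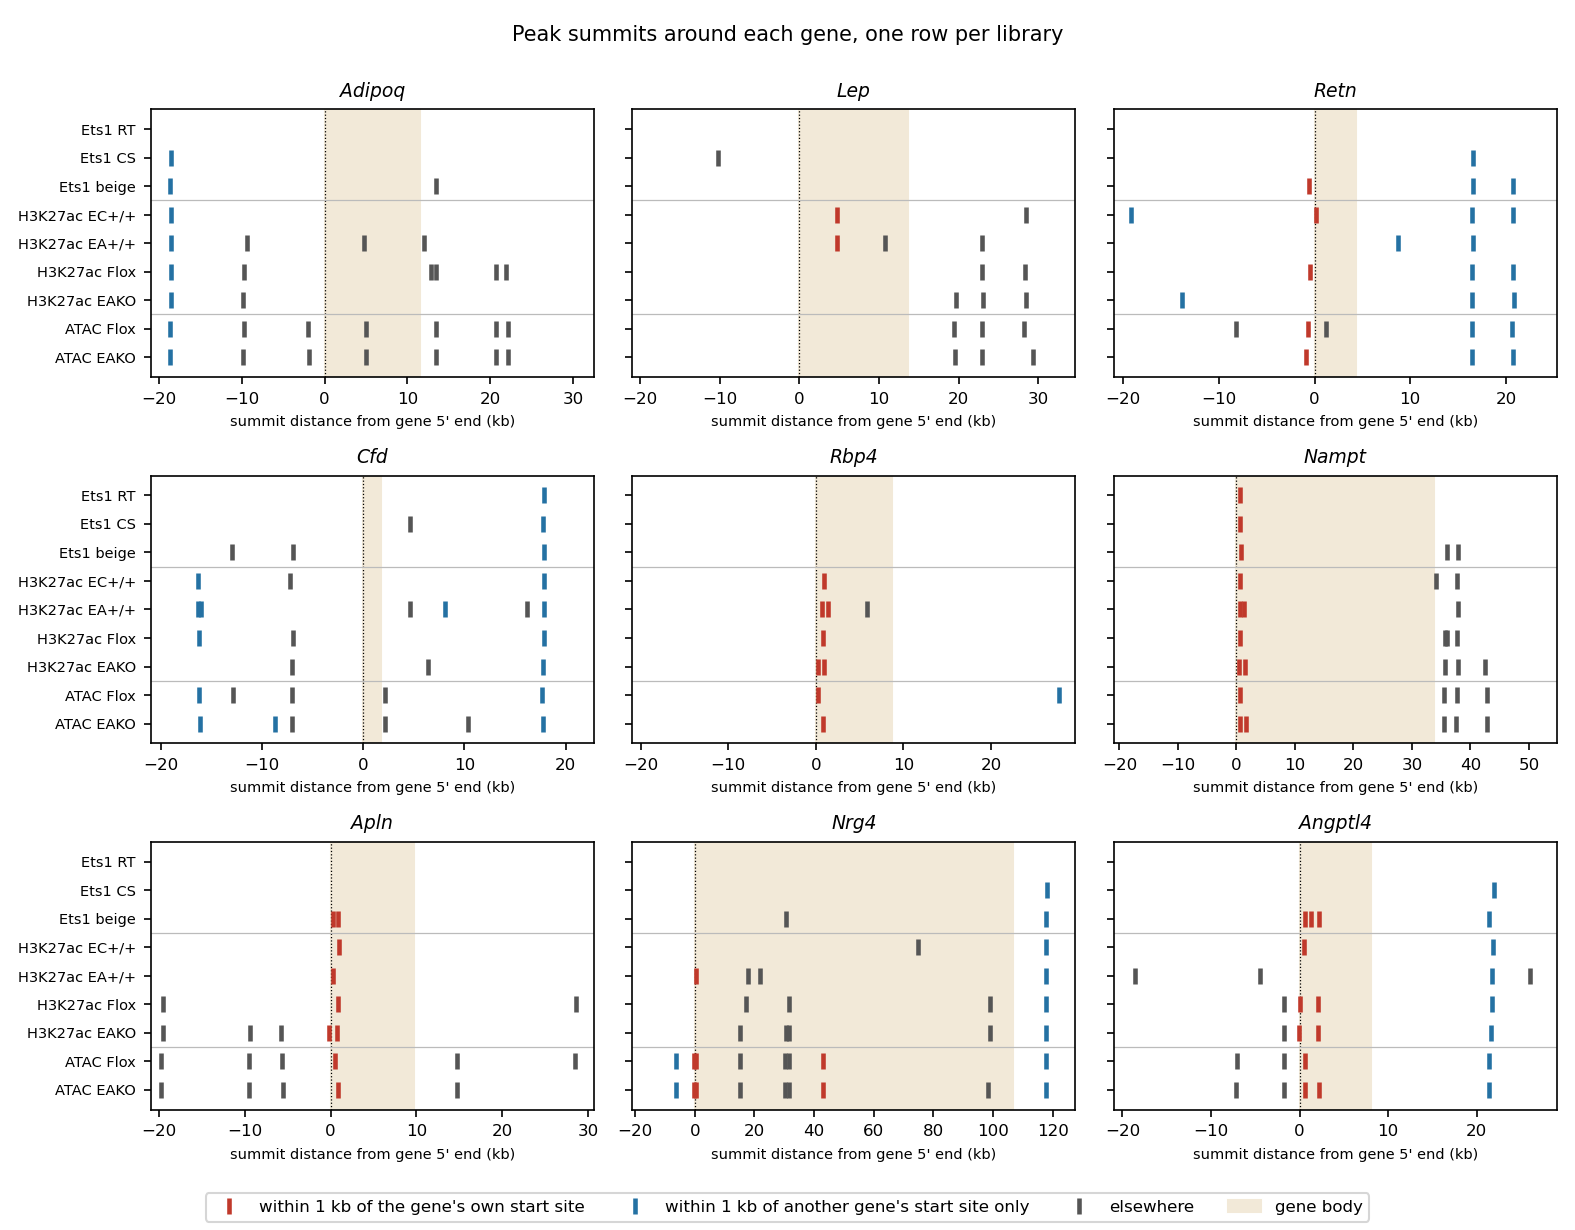
Peak summits around each of the 9 genes by distance from the 5′ end of the gene in kb (horizontal axis, positive in the direction of transcription). Each row is a library, and red marks lie within 1 kb of a start of the gene itself, blue marks within 1 kb of another gene's start, grey marks elsewhere, and the shaded span is the gene body. Nampt, Rbp4 and Apln have red marks in every H3K27ac and ATAC row, and Adipoq and Cfd have none.

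For Adipoq, Retn, Cfd, Nrg4 and Angptl4 the strongest region peak lay at the promoter of another gene in each of the 8 lists other than RT, and for Cfd in RT as well. Ranked by fold enrichment, Retn in Flox ATAC was an exception among these, with its own promoter on top. Over all 9 genes the region peaks merged into 68 sites, of which 14 were at promoters of other genes, 10 at own promoters and 26 in intergenic sequence outside protein-coding genes. An Ets1 peak was present at 6 of the 14, 4 of the 10 and 5 of the 26. A peak in a member's region is therefore often one of a neighbour, and assignment to the hormone gene by distance alone is uncertain.

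Cold exposure was the question of the first comparison, of the Ets1 lists of CS and RT. Promoter state did not differ for any of the 9 genes: Nampt had a peak in both lists (3.63% of all genes), 0 genes had one in CS alone (29.1% of all genes), 0 in RT alone (0.428%), and 8 had none. In the regions CS held 8 Ets1 peaks and RT 2. Both RT peaks, at the Nampt promoter and at Med16 near Cfd, overlapped a CS peak. Of the whole RT list 55.9% overlapped none, a share that the wide interval of 0 of 2 (0 to 65.8%) held. The remaining 6 of 8 CS peaks (75.0%, Wilson interval 40.9 to 92.9%) overlapped no RT peak, beside 88.0% of the whole CS list. They lay 1 each near Adipoq, Lep, Retn, Cfd, Nrg4 and Angptl4, at percentiles from 7.1 to 84.3. Thus 6 of 9 genes had a region peak in CS alone (53.9% of all genes) and 0 in RT alone (6.45%). Of the 8 CS peaks, 5 were at promoters of neighbours and 6 lay in open chromatin of Flox adipocytes, as did 53.4% of all CS peaks. With 4056 best peaks in both lists, 1 of 3 CS region peaks overlapped no RT peak.

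The comparison of beige cells with CS set cultured adipocytes of younger mice beside adult adipocytes, so culture, age and cold cannot be told apart. Retn, Apln and Angptl4 had an Ets1 promoter peak in beige cells alone (17.1% of all genes), Nampt had one in both (29.3%), and 0 members had one in CS alone (3.39%). Beige region peaks numbered 19, of which 13 (68.4%, interval 46.0 to 84.6%) overlapped no CS peak, beside 78.7% of the beige list. These 13 reached percentile 64.6 at most, whereas the 6 shared ones ranged from 68.0 to 98.9. The whole beige list had the same split, with a median percentile of 42.2 for single and 81.3 for shared peaks, beside 42.1 and 90.6 for the hormone genes. In CS 2 of 8 region peaks were absent from beige cells, beside 56.0% of the CS list, one upstream of Lep and one in Med16. By gene, 7 of 9 had a region peak in beige cells alone (58.8% of all genes) and 2 in CS alone (28.8%). All 19 beige peaks lay in open chromatin of Flox adipocytes (85.5% of the beige list) and 16 in its H3K27ac (77.4%). Since the beige list was larger, the promoter counts were also taken over the best 4056 peaks, which left Nampt alone in beige cells.

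The comparison of EA+/+ with EC+/+ asked how H3K27ac differs when adipocytes carry extra Ets1. Lep, Rbp4, Nampt and Apln had a promoter peak in both lists (43.1% of all genes), Nrg4 in EA+/+ alone (7.33%), and Retn and Angptl4 in EC+/+ alone (8.89%). EA+/+ held 30 region peaks and EC+/+ 19, and 18 of the 30 (60.0%, interval 42.3 to 75.4%) and 9 of the 19 (47.4%, 27.3 to 68.3%) overlapped no peak of the other list. The lists as wholes stood at 60.7% and 54.9%, values inside both intervals. By gene, all 9 had a region peak in EA+/+ alone (60.2% of all genes) and 7 in EC+/+ alone (54.9%). Adipoq had 3 EA+/+ peaks without an EC+/+ peak, 9.3 kb upstream (69.6), in its intron 4.8 kb from the start (72.5) and 11.9 kb downstream of the start (45.0), and 0 the other way. EA+/+ carries the Adipoq-Cre transgene, so these peaks cannot be placed at the endogenous gene alone. The promoter peaks found in EC+/+ alone stood at 61.5 (Retn) and 38.3 (Angptl4). At q values of at most 0.001, EA+/+ had promoter peaks at Nampt and Apln, and EC+/+ at 5 genes.

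The comparison of EAKO with Flox asked the same for loss of Ets1. For H3K27ac, Rbp4, Nampt, Apln and Angptl4 had a promoter peak in both lists (58.7% of all genes), Retn in Flox alone (5.18%) and 0 genes in EAKO alone (1.75%). Of 30 Flox region peaks 8 (26.7%, interval 14.2 to 44.4%) had no EAKO peak, beside 35.9% of the list, and of 32 EAKO peaks 9 (28.1%, 15.6 to 45.4%) had no Flox peak, beside 26.0%. By gene, 5 of 9 had a region peak in Flox alone (60.1% of all genes) and 7 in EAKO alone (48.6%). Single peaks were low in their lists, at most percentile 39.3 in Flox and 48.3 in EAKO, as they were over the whole lists (medians of 21.9 and 21.6, against 66.5 and 62.3 for shared peaks). Of the 9 genes Adipoq had the most single Flox peaks, 4 of 6 (35.9% of the whole list), a difference that was not tested. These 4 lay past the gene, 12.8, 13.4, 20.7 and 21.9 kb from the start, at percentiles of 21.6, 39.3, 32.5 and 11.1. No Adipoq peak was present in EAKO alone. Open chromatin was called in both genotypes at these places. The ATAC peak near 13.4 kb was at 76.9 in Flox and 87.0 in EAKO, that at 20.7 kb at 67.5 and 53.3, and that at 22.1 kb at 16.7 and 10.0. In EAKO, which carries the Adipoq-Cre transgene, signal of the transgene and of the gene cannot be told apart. For the other 8 genes, 4 of 24 Flox H3K27ac peaks were single (16.7%), beside 35.9% of the whole list.

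Open chromatin around the hormone genes was called at mostly the same places in Flox and EAKO. Retn, Rbp4, Nampt, Apln, Nrg4 and Angptl4 had an ATAC promoter peak in Flox and in EAKO (65.2% of all genes), and no member had one in EAKO alone (0.784%) or in Flox alone (2.54%). Both lists held 44 region peaks. Of these, 5 in Flox (11.4%, interval 4.95 to 24.0%) and 3 in EAKO (6.82%, 2.35 to 18.2%) overlapped no peak of the other, beside 16.6% and 8.98% of the lists. The single peaks were weak, at percentiles of 17.1 and below in Flox and 22.6 and below in EAKO, and single peaks of the whole lists had medians of 12.5 and 10.0. By gene, 4 of 9 had a region peak in Flox alone (41.0% of all genes) and 2 in EAKO alone (28.4%). The 7 Adipoq peaks were all shared.

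**Figure D4:**
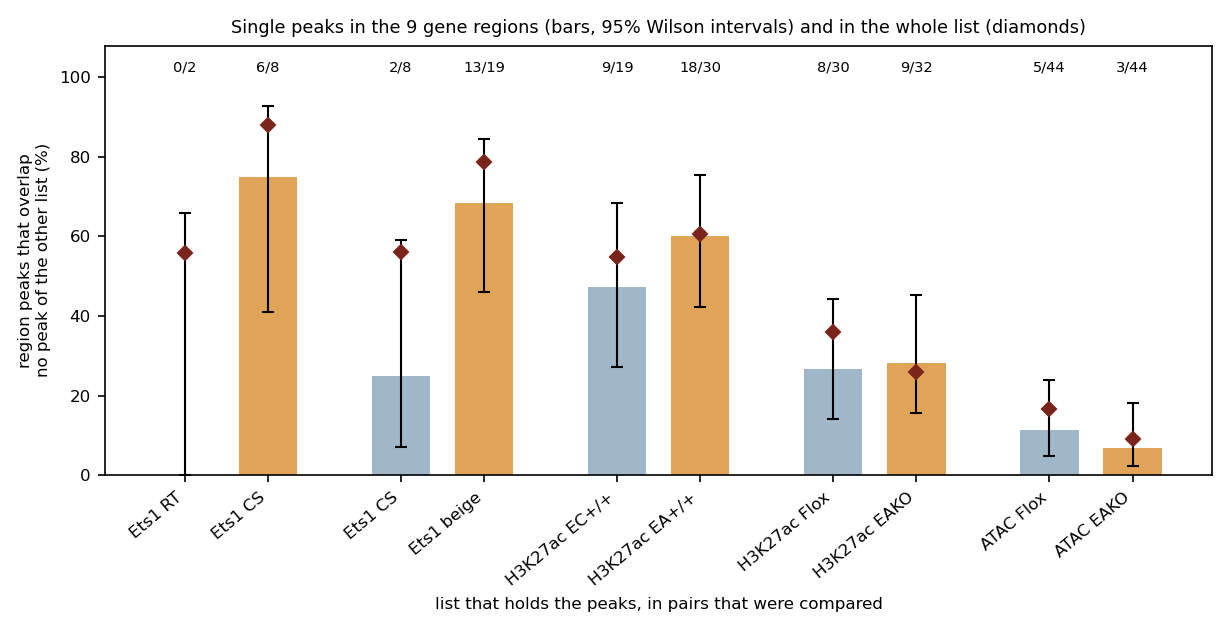
Percent of region peaks of the 9 genes that overlap no peak of the other list (bars, with 95% Wilson intervals for counting error) beside the same percent of the whole list (diamonds), for each side of the 5 comparisons. Counts stand above the bars. The diamond lies within the interval in all 10 cases, from 0 of 2 in RT to 3 of 44 in EAKO ATAC.

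Further genes tied to these hormones were read in the same way. Of 34 other secreted fat factors, the RT list had an Ets1 promoter peak at 0 (4.06% of all genes), the CS list at 4 (11.8%, beside 32.7%) and the beige list at 15 (44.1%, beside 46.4%). The beige share was thus near that of all genes and the CS share below it. In CS without RT the 3 highest were Nucb2 (76.4), the precursor of nesfatin, Angptl2 (73.7) and Metrnl (62.3). Those in beige cells without CS included C1qtnf12 (77.9) and Ccl2 (76.5). H3K27ac marked 10 of the 34 in EC+/+ (52.0% of all genes) and 15 in EA+/+ (50.4%), against 28 in Flox (63.9%) and 23 in EAKO (60.5%). EA+/+ without EC+/+ held 9 (7.33% of all genes), led by C1qtnf12 (88.3), Slit2 (70.6) and Bmp4 (62.6). The reverse held for 4 (8.89%). Flox without EAKO held 5 (5.18%), led by Bmp4 (32.5), Gdf15 (26.9) and Lcn2 (26.7), and EAKO without Flox held 0 (1.75%). ATAC marked the same 25 in both (73.5%, beside 67.7% and 66.0% of all genes).

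Receptors and partners of the hormones numbered 20. The RT list had Ets1 promoter peaks at 0 of them, the CS list at 8 (Wilson interval 21.9 to 61.3%) and the beige list at 10 (29.9 to 70.1%). Both intervals held the shares of all genes (32.7% and 46.4%). The adiponectin receptor gene Adipor2 (79.7), Cap1, a reported resistin receptor (85.5), and Lpl, the lipase that Angptl4 inhibits (76.6), led CS without RT, and Adipor1 (90.6) led beige cells without CS, before Lmf1 (47.6). Cdh13, which encodes T-cadherin, a binding partner of adiponectin, was the 1 gene of the 20 with one in CS without beige cells (65.0), beside 3.39% of all genes. H3K27ac promoter peaks were present in EA+/+ without EC+/+ at 2 of the 20 (7.33% of all genes), the leptin receptor gene Lepr (82.9) and Nmnat2 (64.3). In EC+/+ without EA+/+ there was 1 (8.89%), at Aplnr (33.1). Flox without EAKO had 3 (5.18%), at Lepr (75.1), Stra6 (58.4), a retinol-binding protein receptor, and C3 (10.2), and EAKO without Flox had 0 (1.75%). ATAC differed at C3ar1, the 1 gene of the 20 in EAKO without Flox (19.5), beside 0.784% of all genes. Adiponectin is folded and assembled in the endoplasmic reticulum. The 5 genes listed for that step all had a promoter peak in every list but RT, where 1 had one (4.06% of all genes). In the other 8 lists the share of all genes ran from 32.7% in CS to 67.7% in Flox ATAC. The interval of 5 of 5 (56.6 to 100%) held that share in the H3K27ac and ATAC lists of Flox and EAKO. It lay above the share in CS, beige cells, EC+/+ and EA+/+. Erp44 (88.8), Ero1l (84.6) and Gstk1 (82.5) led CS without RT. In CS Ets1 was called at the promoters of the adiponectin assembly genes and of Adipor2, and not at that of Adipoq. The promoter window of Adipoq held 0 CpG. Of genes with 0 to 4 CpG 3.81% had a promoter peak in CS, beside 55.8% of those with 15 or more. The contrast between these genes was not tested.

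**Figure D5:**
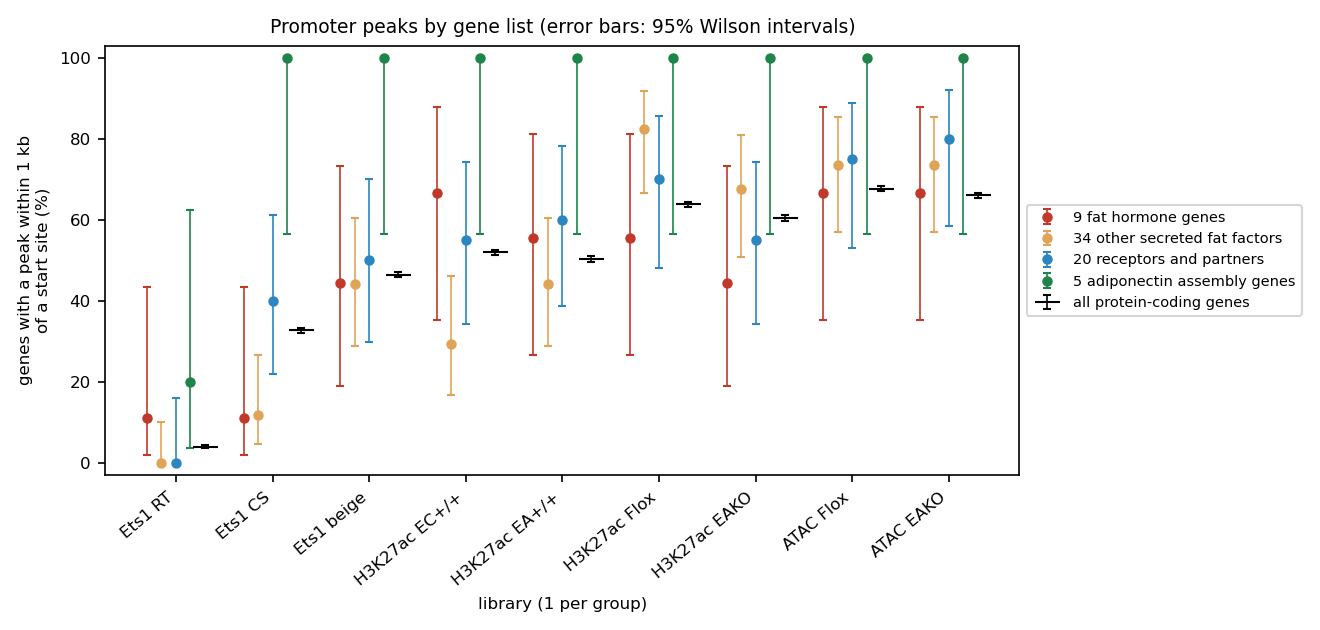
Percent of genes with a promoter peak (vertical axis) in each of the 9 libraries for the 9 fat hormone genes, 34 other secreted fat factors, 20 receptors and partners, 5 adiponectin assembly genes and all protein-coding genes, with 95% Wilson intervals for counting error. In CS the hormone genes stand at 11.1% and all genes at 32.7%, while the assembly genes stand at 100% in every list but RT. The interval of the assembly genes (56.6 to 100%) holds the value of all genes in the Flox and EAKO lists.

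The genes most like each member were found among those with a promoter peak in the same lists, by the mean absolute difference in percentile over these lists. Adipoq and Cfd, with no promoter peak, were left out. For Nampt, 675 other genes had a peak in all 9 lists, and Nr2c2 (mean difference 3.2 points) and Gmfg (3.4) were closest. Angptl4 was nearest to Eml1 (4.5) and Scarf2 (5.8), and Apln to Limd2 (7.3) and Tm2d3 (7.8). Nrg4 had the values of Tmem266, with which it shares the peaks, and Trank1 came next (4.3). Rbp4 was nearest to Sstr2 (10.2) and Hpn (10.3), and Lep to Fbp1 (12.3) and Wbp2nl (14.4). The pattern of Retn was shared by 14 other genes, and that of Lep by 60.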

How the data were processed

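The members and gene lists were chosen with earlier results of these data known. The authors trimmed reads with trimmomatic, aligned them with BWA to mm10 and used MACS2 on single libraries to call peaks at a q value below 0.05. The submitters' processing notes also name SAMtools, deepTools and DESeq2. A control library for MACS2 was not given in the sources used here. Each deposited list gives a score, the fold enrichment (a linear ratio), the −log10 p and −log10 q values and the summit offset of a peak. The percentile is the percent of a list's peaks with a lower −log10 q. Peaks were compared in Python 3.11.15 (numpy 2.4.6, scipy 1.17.1, pysam 0.24.0, matplotlib 3.10.9). Promoters were 1 kb on each side of 93513 start sites (GENCODE M21). Peaks that shared 1 bp or more with a peak of the other list were called shared. Wilson intervals (95%) and all counts cover counting error only. Overlap and rank code was tested on simulated data. Other genes were named as those with a promoter peak in 1 library of a comparison, up to 3 per list, by percentile. Some genes that this rule or the likeness measure would name are not reported here.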

Additional observations from a re-analysis of the deposited data

How the results depend on the processing

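Each group had 1 library, so the spread between animals is unknown, and list size limits which weak peaks were called. A promoter window of 3 kb left the promoter counts as they were, apart from adding Adipoq and Cfd in both ATAC lists (8 genes each). At q of at most 0.001 the EA+/+ count fell to 2 genes. With as many best peaks as the smallest list of the assay, the counts were 1 in beige cells, 3 in Flox H3K27ac and 2 in EAKO H3K27ac. Shares of single region peaks moved beyond their interval in these cases: CS without RT 33.3% with equal numbers of best peaks, CS without beige 0% at q of at most 0.001, and beige without CS 90.9% with a flank of 5 kb. Of the alternatives added after seeing the data, leaving out Adipoq moved none of the 10 shares past these limits. It could not change the 9 promoter counts, since Adipoq had no promoter peak in any list. Leaving out peaks at promoters of other genes gave 92.3% for beige without CS, 66.7% for CS without beige and 76.2% for EA+/+ without EC+/+. The causes were not tested beyond what each alternative leaves out. Ranking by fold enrichment moved the best region percentile by over 5 points in 33 of 70 cases. No paired analysis was possible because each group had 1 library and the lists carry no shared replicate numbers.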
